A study of Mus musculus with 8 samples.

Results

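Type I interferon-stimulated genes are genes whose transcription rises when a cell receives type I interferon, and 40 of them were measured here in prostates of NOD mice. They were chosen by name: a gene belongs to the 40 when the Ensembl identifier of its row in the count table carries one of their symbols in the GENCODE M21 annotation of mouse genome GRCm38. They are 40 of the 54532 genes in the table, and 39 of them passed the filter on low counts, Oas2 being the exception.

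The prostates came from 8 male NOD/ShiLtJ mice, an inbred strain with spontaneous autoimmunity. The control group was 4 mice that received the vehicle PBS, and the other group was 4 mice that received etanercept, a soluble TNF receptor that binds TNF, at 4 mg/kg. Both were injected into the peritoneum 2 times per week for 5 weeks, from an age of 25 weeks, and the tissue was taken at 30 weeks. The comparison asks which prostate transcripts differ when TNF is blocked. Mice are named by group and animal number, and values of single mice follow 1 order throughout: control 1, 3, 65 and 69, then etanercept 17, 19, 50 and 52. Between 13760669 reads, in control 65, and 25178942 reads, in control 1, were counted on genes. Prostate tissue was used with its cell types mixed, and the labels do not say which lobes or how much of the gland it held. The labels also do not say which mice had become diabetic, so either state may stand in either group. In bulk RNA, fewer cells of a type and less RNA per cell cannot be told apart, and this holds for every level below.

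Cells make type I interferons, chiefly interferon-alpha and interferon-beta, when their sensors meet nucleic acid that is foreign or out of place. The interferon binds the receptor chains Ifnar1 and Ifnar2, the kinases Jak1 and Tyk2 phosphorylate Stat2 among other targets, and Stat2 joins Irf9 in a complex that binds response elements in promoters. Many of the same genes also respond to interferon-gamma and some to NF-κB and Irf1, through which TNF acts, so their transcripts alone do not name the signal a cell received.

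Some libraries stood apart in the markers of cell types. Prostate was checked by 10 markers of luminal epithelium, whose summed level was 12853, 12738, 14083 and 23347 CPM (counts scaled to library size with TMM factors) in the control mice and 10106, 20250, 21454 and 18158 CPM in the etanercept-treated mice. All 10 were detected, control 69 lay far above the other control mice, and etanercept 17 was lowest. The most abundant of them was Spink1, which ranged from 137 CPM in etanercept 17 to 18140 CPM in control 69. Genes of the seminal vesicle, a gland that lies against the prostate, summed to 0, 0, 27.0 and 4001 CPM in the control mice and to 97204, 3.42, 668 and 25.2 CPM in the etanercept-treated mice. Etanercept 17 thus held far more of these transcripts than any other mouse, with Svs2 alone at 69757 CPM, and control 69 came next. The 5 markers of all leukocytes summed to 287, 682, 309 and 253 CPM in the control mice and to 450, 235, 283 and 267 CPM in the etanercept-treated mice. Control 3 was highest, with Cd52 as the most abundant marker. The part of these differences in tissue in the results below was not tested. Values without single mice are given beside many of these results, not all.

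**Figure D1:**
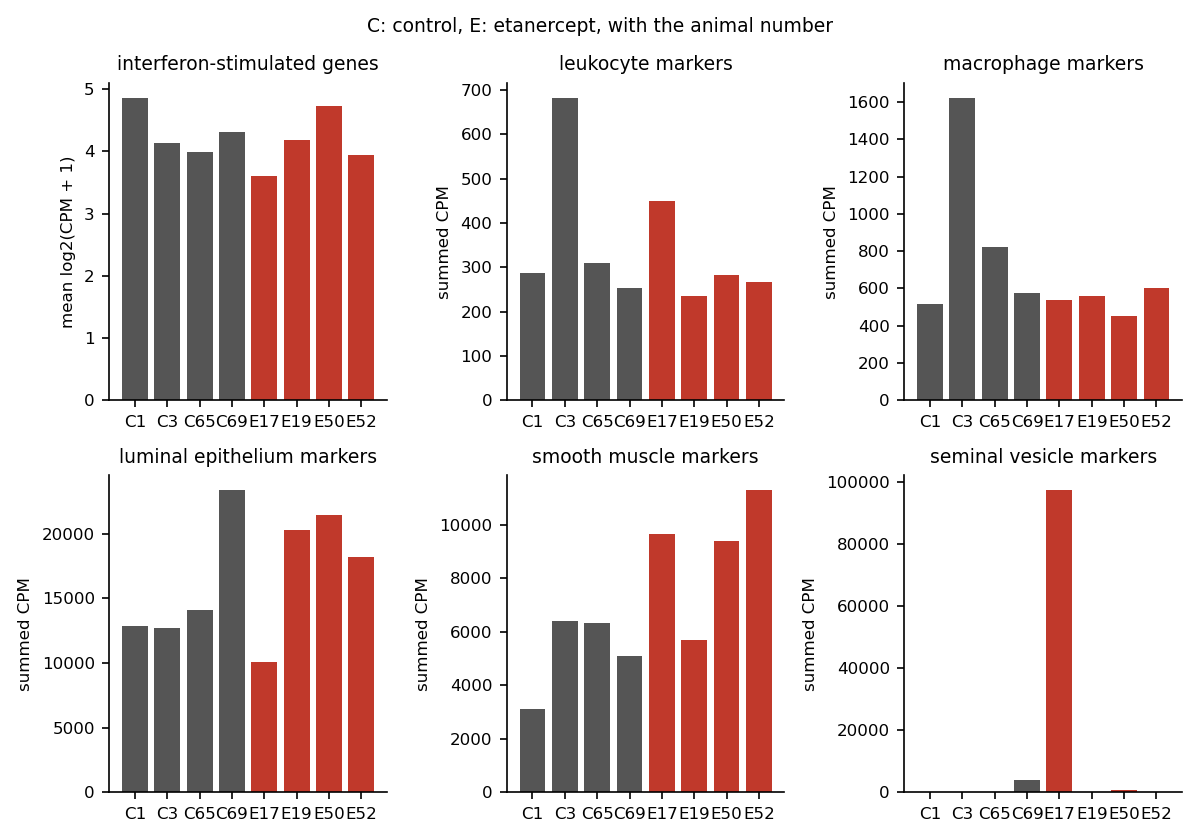
Bars give, for each mouse, the mean log2(CPM + 1) over the 40 interferon-stimulated genes and the summed CPM of markers of 5 cell types, with control mice in grey and etanercept-treated mice in red. The interferon-stimulated genes are highest in control 1 (4.86) and etanercept 50 (4.74), the leukocyte markers in control 3 (682 CPM) and the seminal vesicle markers in etanercept 17 (97204 CPM).

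The 40 genes varied between mice of the same group more than between the groups. Their mean log2(CPM + 1) was 4.86, 4.13, 4.00 and 4.31 in the control mice and 3.60, 4.19, 4.74 and 3.95 in the etanercept-treated mice. Control 1 was highest, etanercept 50 was next, etanercept 17 was lowest, and the groups overlapped. The group means were 4.33 ± 0.38 and 4.12 ± 0.48 (SD, n = 4 each). Of the 39 tested genes, 19 were highest in control 1 and 11 in etanercept 50, which makes 30 for this pair of mice. Among all tested genes, 19.2% were highest in control 1 and 7.36% in etanercept 50. For 13 genes these were the leading pair of mice, but the pair was named after these values were seen. The share of all tested genes was not computed for it. The lowest value lay in etanercept 17 for 21 genes, in etanercept 52 for 8 and in control 69 for 5, where the shares of all tested genes were 18.3%, 9.99% and 22.1%. Control 3, the mouse with most leukocyte markers, was highest for 4 of the 39, beside 12.99% of all tested genes. A link between these markers and the 39 genes was not tested.

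**Figure D2:**
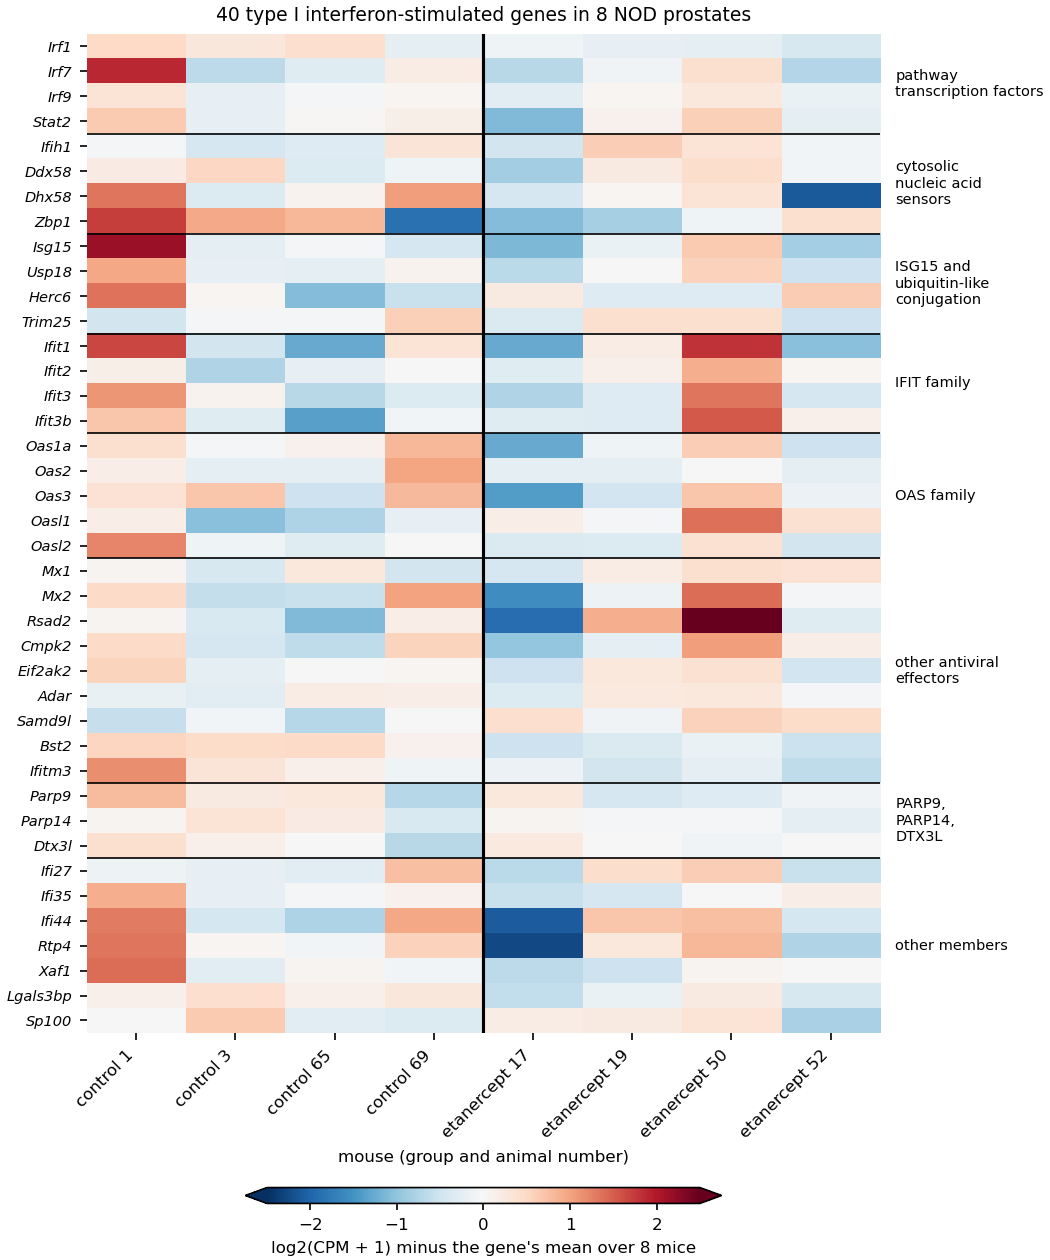
Colour gives log2(CPM + 1) of each of the 40 genes (rows, by role) in each of 8 mice (columns) minus that gene's mean over the mice, with values beyond 2.5 in either direction shown at the end of the scale. Red cells gather in control 1 and etanercept 50 and blue cells in etanercept 17, on both sides of the line between the groups.

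No gene in the genome passed the main test. The quasi-likelihood test of edgeR, with p adjusted by the Benjamini-Hochberg method and a limit of 0.05, called 0 of 15472 tested genes (0.0%) and so 0 of the 39, and its smallest adjusted p was 0.739. Before adjustment, 561 genes were lower and 463 higher with etanercept at p up to 0.05 in the same test, and DESeq2's Wald test called 21 genes after adjustment. The biological coefficient of variation between mice of a group was 0.547. Among the 39, 4 genes were lower with etanercept with unadjusted p up to 0.05 (Bst2, Ifitm3, Irf1 and Lgals3bp), beside 3.63% of all tested genes, and 1 gene was higher (Samd9l), beside 2.99%. DESeq2 called 1 of the 40, Bst2, beside 0.113% of the genes to which it gave an adjusted p. The values of the groups did not overlap for Bst2 and Ifitm3, both lower with etanercept, beside 2.53% of all tested genes in that direction, and for 0 of the 39 in the other direction, beside 2.41%.

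The log2 fold change of etanercept over control was below 0 for 27 of the 39 (69.2%) and above 0 for 12, with a median of −0.16 and a range from −1.25 to 1.53. Over all tested genes, 51.0% were below 0 and the median was −0.01. Single mice moved this description. Without control 1 the split was 21 below and 18 above 0 and the median −0.04. Without etanercept 17 it was 22 and 17 with a median of −0.07, without etanercept 52 it was 23 and 16 with a median of −0.10, and without etanercept 50 it was 32 and 7 with a median of −0.51. Without control 65 it was 30 and 9 with a median of −0.29, and without control 3 and without control 69 the median was −0.25 and −0.24. The count of genes lower with unadjusted p up to 0.05 was 3 without control 1 (2.82% of all tested genes in that fit), 5 without etanercept 50 (2.62%), 5 without control 69 (5.98%), 2 without control 65 (2.49%) and 2 without etanercept 52 (2.69%). The count of genes higher was 0 without control 65 (1.73% of all tested genes), etanercept 50 (2.41%) or etanercept 52 (1.64%).

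**Figure D3:**
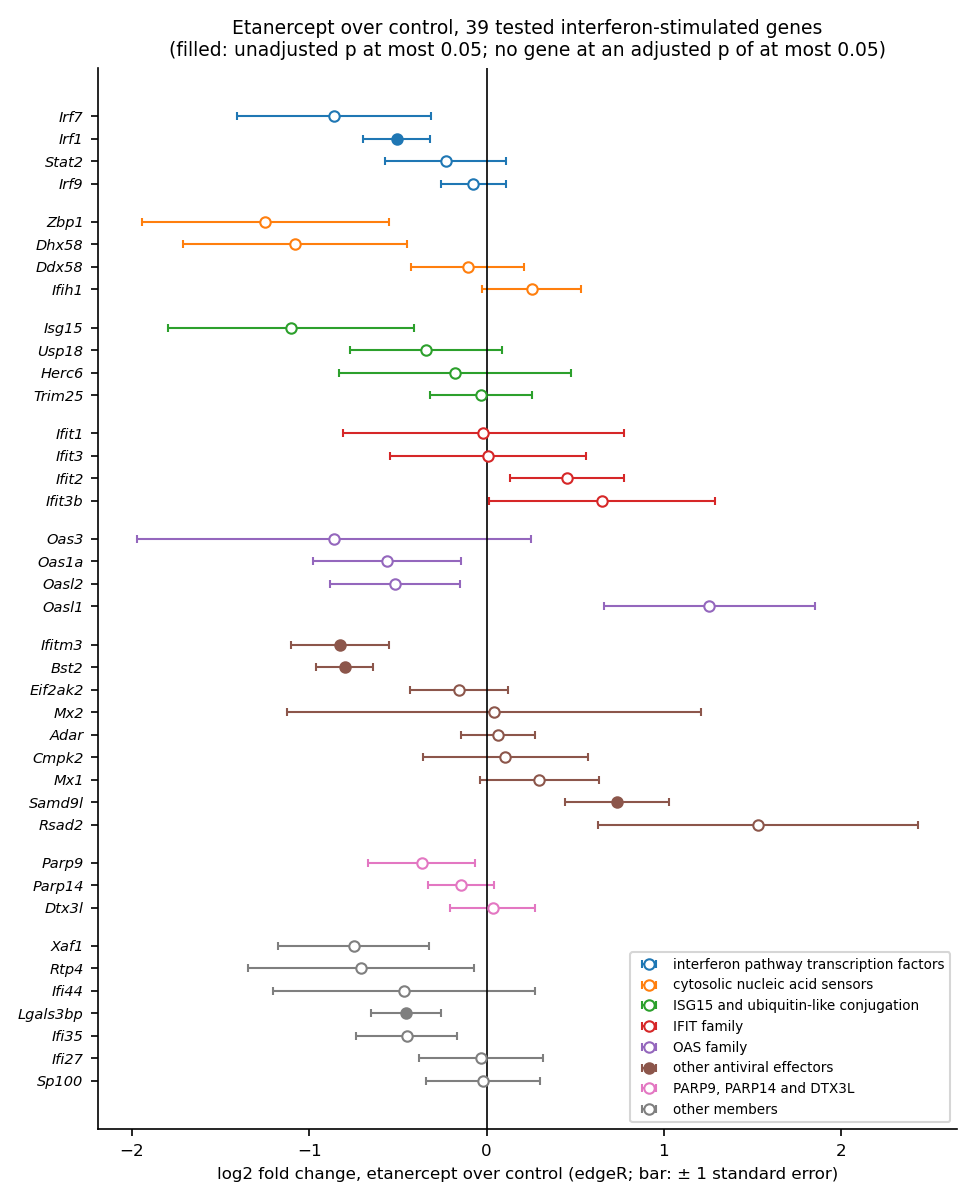
Points give the log2 fold change of etanercept over control for the 39 tested genes with bars of 1 standard error, grouped and coloured by role. Filled points mark the 5 genes with unadjusted p up to 0.05: Irf1, Ifitm3, Bst2 and Lgals3bp to the left of 0 and Samd9l to the right.

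The 4 transcription factors among the 40 all had log2 fold changes below 0, with a median of −0.37. Without control 1, and likewise without etanercept 17, 2 lay below and 2 above 0. Irf1 is a factor induced by interferons and by TNF, and lies on chromosome 11 from 53770014 to 53778374. It was at 64.8, 55.9, 61.9 and 38.5 CPM in the control mice and at 42.5, 39.5, 39.3 and 34.3 CPM in the etanercept-treated mice. Control 1, 3 and 65 lay above every etanercept-treated mouse, while control 69 lay among them. In log2 units the fold change was −0.51 with a standard error of 0.19 (unadjusted p = 0.0236, edgeR adjusted p = 0.739), and leaving out single mice gave −0.65 to −0.44. Irf1 kept an unadjusted p up to 0.05 in all 10 settings with every mouse but in only 5 of the 8 fits that leave a mouse out.

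Irf7, which amplifies the production of interferon-alpha, lies on chromosome 7 from 141262706 to 141266481. It was at 149, 24.8, 31.9 and 45.5 CPM in the control mice and at 24.2, 37.5, 52.9 and 23.6 CPM in the etanercept-treated mice. Control 1 stood alone far above the rest, and the other 7 mice of both groups shared 1 range. The log2 fold change of −0.86 (standard error 0.55, edgeR adjusted p = 0.822) became 0.01 without control 1. Irf9, the DNA-binding member of the interferon complex, was at 75.7, 51.3, 57.7 and 61.6 CPM in the control mice and at 48.5, 61.4, 71.5 and 52.6 CPM in the etanercept-treated mice. Control 1 and etanercept 50 were its highest mice. Its partner Stat2 was at 58.0, 31.7, 37.2 and 40.7 CPM in the control mice and at 16.4, 39.6, 55.5 and 31.2 CPM in the etanercept-treated mice. Again control 1 and etanercept 50 led, and etanercept 17 was lowest. The log2 fold changes were −0.07 for Irf9 (standard error 0.18) and −0.23 for Stat2 (standard error 0.34), with edgeR adjusted p of 0.985 and 0.957. Both lay above 0 without etanercept 17, at 0.01 each, and that of Irf9 also without control 1, at 0.02.

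The sensors of nucleic acid in the cytosol are themselves induced by interferon. Ifih1 and Ddx58 encode MDA5 and RIG-I, helicases that detect viral RNA, Dhx58 encodes their relative LGP2, and Zbp1 binds nucleic acid in the Z form. Their log2 fold changes were below 0 in 3 of 4, with a median of −0.59, and the split was 2 and 2 without control 3 or without etanercept 17. Ifih1 was at 22.1, 16.5, 17.8 and 28.2 CPM in the control mice and at 16.1, 34.8, 28.6 and 21.4 CPM in the etanercept-treated mice. Etanercept 19 was its highest and etanercept 17 its lowest mouse, so that the treated group spanned all control values. Between the groups the log2 fold change was 0.25 with a standard error of 0.28 (edgeR adjusted p = 0.928). It was 0.06 without etanercept 19, 0.43 without control 69 and 0.09 with the GC trend removed. Ddx58 was at 22.4, 27.8, 15.1 and 17.8 CPM in the control mice and at 10.1, 22.7, 26.2 and 18.2 CPM in the etanercept-treated mice. The mice of both groups were interleaved except for etanercept 17, again the lowest. The log2 fold change of −0.11 (standard error 0.32, edgeR adjusted p = 0.990) was 0.07 without control 3 and 0.11 without etanercept 17.

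Zbp1 on chromosome 2 (173206612 to 173218923) had the lowest log2 fold change of the 39. It was at 35.6, 20.3, 18.6 and 2.03 CPM in the control mice and at 4.19, 5.19, 9.27 and 13.6 CPM in the etanercept-treated mice. Control 1, 3 and 65 lay above every etanercept-treated mouse and control 69 lay below them all, so the groups overlapped through 1 mouse. Etanercept over control gave a log2 fold change of −1.25 with a standard error of 0.70 (unadjusted p = 0.104, edgeR adjusted p = 0.796), and it was −1.62 without control 69 and −0.77 without control 1. The range over mice was wide, with the highest at 17.6 times the lowest, and that of Dhx58 was 19.7 times.

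Isg15 is a ubiquitin-like protein that is joined to other proteins, in mice by the ligase Herc6, and removed again by Usp18, which also dampens the receptor. Trim25 is a ubiquitin ligase that acts on RIG-I. All 4 log2 fold changes were below 0, with a median of −0.26, whereas without control 1 they were below 0 for 1 gene and above for 3, with a median of 0.03. Isg15, on chromosome 4 from 156199424 to 156200818, was at 45.5, 7.80, 9.23 and 6.83 CPM in the control mice and at 3.79, 8.29, 15.5 and 4.78 CPM in the etanercept-treated mice. Control 1 was far above all others, and the other 3 control mice lay within the range of the etanercept-treated mice. In log2 units the fold change was −1.10 with a standard error of 0.70 (edgeR adjusted p = 0.822), and it was 0.01 without control 1. Usp18 was at 18.5, 7.67, 7.40 and 9.61 CPM in the control mice and at 5.24, 8.93, 13.9 and 5.96 CPM in the etanercept-treated mice. Its order of mice followed that of Isg15 in having control 1 first, etanercept 50 next and etanercept 17 last. Between the groups the log2 fold change was −0.34 with a standard error of 0.43 (edgeR adjusted p = 0.939) and 0.04 without control 1. Herc6 was at 12.6, 4.47, 1.48 and 2.604 CPM in the control mice and at 5.18, 3.21, 3.23 and 7.14 CPM in the etanercept-treated mice. Control 1 was again highest, but etanercept 52 came next and control 65 was lowest. For Herc6, whose exons share 13.7% of their length with Gm45193 on the same strand, the log2 fold change was −0.18 (standard error 0.65, edgeR adjusted p = 0.993) and 0.69 without control 1.

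The IFIT genes lie side by side on chromosome 19 and encode proteins that bind viral RNA. Of the 4, 3 had log2 fold changes above 0 and the median was 0.23. The split was 2 and 2 with RLE factors, upper-quartile factors, library size alone, DESeq2, a minimum of 10 counts or the GC trend removed. It was also 2 and 2 without control 3, 65 or 69, and 3 below and 1 above without etanercept 50. All 4 lay above 0 without etanercept 17, 19 or 52, with the length trend removed, and without control 1, where the median was 0.68. Ifit1, from 34640871 to 34650009, was at 89.7, 19.7, 10.8 and 35.1 CPM in the control mice and at 10.8, 31.4, 98.9 and 12.7 CPM in the etanercept-treated mice. Control 1 and etanercept 50 stood far above the other mice of their groups, whose values overlapped. The means were 38.8 ± 35.4 and 38.4 ± 41.4 CPM (SD, n = 4 each), and the log2 fold change of −0.02 with a standard error of 0.79 (edgeR adjusted p = 0.9996) moved to 0.80 without control 1 and to −1.08 without etanercept 50. Ifit3, from 34583531 to 34588731, was at 41.4, 19.9, 11.2 and 14.5 CPM in the control mice and at 10.7, 14.8, 48.6 and 13.7 CPM in the etanercept-treated mice. The same 2 mice stood out. Etanercept over control gave a log2 fold change of 0.01 with a standard error of 0.55 (edgeR adjusted p = 0.9996), and it was 0.51 without control 1 and −0.74 without etanercept 50. Its neighbour Ifit3b shares part of its sequence: 18.6% of the stretches of 150 nt in Ifit3 transcripts also occur in Ifit3b and 16.0% in the reverse sense, so counts of this pair are uncertain in part.

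The OAS genes on chromosome 5 encode oligoadenylate synthetases, which activate RNase L to cut RNA, and their relatives. Oas2 had 9, 0, 0 and 23 counts in the control mice and 0, 0, 3 and 0 counts in the etanercept-treated mice. It was absent from 5 mice, at 3 counts in etanercept 50 and clearly counted only in control 1 and control 69, and since it did not pass the filter no fold is given. In these libraries 3 counts stand for between 0.109 CPM and 0.211 CPM. Oas3 was at 2.39, 3.27, 0.845 and 3.65 CPM in the control mice and at 0.0, 0.909, 3.29 and 1.39 CPM in the etanercept-treated mice. It was not detected in etanercept 17, and the groups overlapped. In log2 units the fold change was −0.86 with a standard error of 1.11 (edgeR adjusted p = 0.943). It was −1.72 without etanercept 50 and −0.44 without etanercept 17. Of the other 3, Oas1a and Oasl2 had log2 fold changes below 0 and Oasl1 one above 0, at −0.56, −0.52 and 1.26, with unadjusted p of 0.208, 0.188 and 0.0614. Fits without 1 mouse gave −0.99 to −0.31 for Oas1a, −0.76 to −0.04 for Oasl2 and 0.76 to 1.61 for Oasl1. Oasl1 was lowest in control 3 and highest in etanercept 50, at 9.75 CPM. Oas1a shares 32.4% of its stretches of 150 nt with Oas1g.

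The 9 other antiviral effectors act on virus entry, replication or release. Of their log2 fold changes 3 were below and 6 above 0, with a median of 0.06. Library size alone turned this to 5 and 4 with a median of −0.00430, and leaving out etanercept 50 to 6 and 3 with a median of −0.33. The median was also below 0 with the animal number as a term (−0.03) and without control 3 (−0.04) or control 65 (−0.09). It was 0.36 without etanercept 17. Bst2 (ENSMUSG00000046718) encodes tetherin, a membrane protein that holds budding virus particles on the cell, and lies on chromosome 8 from 71534255 to 71537456. It was at 111, 105, 108 and 82.4 CPM in the control mice and at 53.5, 59.2, 68.0 and 52.5 CPM in the etanercept-treated mice. The lowest control mouse, control 69, lay above the highest etanercept-treated mouse, etanercept 50, and neither control 1 nor etanercept 17 stood apart from its group. The means were 102 ± 13.01 and 58.3 ± 7.10 CPM (SD, n = 4 each), so the control mean was 1.74 times that of the treated mice. Between the groups the log2 fold change was −0.80 with a standard error of 0.16 (unadjusted p = 0.000557), which did not pass the edgeR test after Benjamini-Hochberg adjustment (adjusted p = 0.739). DESeq2's Wald test gave −0.82 and an adjusted p of 0.0207, and over all alternatives the adjusted p of Bst2 lay between 0.0207 and 0.9995. Leaving out single mice gave −0.89 to −0.76.

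Ifitm3 encodes a membrane protein that hinders the fusion of viruses in endosomes and lies on chromosome 7 from 141009586 to 141010770. It was at 402, 226, 198 and 167 CPM in the control mice and at 163, 130.0, 152 and 115 CPM in the etanercept-treated mice. The groups did not overlap, by a narrow margin between etanercept 17 and control 69, and control 1 was far above the rest. With library size alone the values of the groups overlapped. Etanercept over control gave a log2 fold change of −0.83 with a standard error of 0.28 (unadjusted p = 0.0139, edgeR adjusted p = 0.739), and it was −0.51 without control 1. The transcripts of Bst2 and Ifitm3 are short, with 903 nt and 678 nt of exon. With the trend of expression on exon length removed from each mouse, their log2 fold changes were −0.55 (unadjusted p = 0.00326) and −0.50 (unadjusted p = 0.0254), and that of Isg15, with 756 nt of exon, was −0.71 in place of −1.10.

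Samd9l, an interferon-induced protein that restricts poxviruses, was the 1 gene of the 39 that was higher with etanercept with unadjusted p up to 0.05. It was at 6.76, 10.1, 6.13 and 10.5 CPM in the control mice and at 14.5, 9.95, 16.3 and 15.04 CPM in the etanercept-treated mice. Etanercept 17, 50 and 52 lay above every control mouse, and etanercept 19 lay among the control mice. In log2 units the fold change was 0.74 with a standard error of 0.29 (unadjusted p = 0.0320, edgeR adjusted p = 0.739), and leaving out single mice gave 0.59 to 0.87. Samd9l stayed at this level of evidence in 9 of 10 settings with every mouse, the exception being removal of the GC trend, but in only 3 of the 8 fits that leave a mouse out. Its highest unadjusted p over all these fits was 0.0933.

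Rsad2 encodes viperin, an enzyme that makes a chain-terminating nucleotide, and lies on chromosome 12 from 26442746 to 26456452. It was at 6.40, 4.40, 2.25 and 6.94 CPM in the control mice and at 0.874, 12.2, 40.1 and 4.71 CPM in the etanercept-treated mice. The etanercept-treated group held both the lowest and the highest mouse, which differed by 45.9 times. The log2 fold change of 1.53, the highest of the 39, had a standard error of 0.90 (edgeR adjusted p = 0.812) and was 0.25 without etanercept 50. Mx1, a GTPase that traps viral nucleoproteins, was at 8.43, 5.80, 9.72 and 5.50 CPM in the control mice and at 5.71, 9.20, 10.8 and 10.5 CPM in the etanercept-treated mice. Its mice lay within a narrow range, the highest at 1.96 times the lowest, and the groups overlapped. Between the groups the log2 fold change was 0.30 with a standard error of 0.34 (edgeR adjusted p = 0.932). The log2 fold changes of Mx2, Cmpk2, Eif2ak2 and Adar lay between −0.16 and 0.11, with unadjusted p from 0.587 to 0.971. Fits without 1 mouse gave −1.06 to 0.61 for Mx2 and −0.38 to 0.36 for Cmpk2. For Eif2ak2 and Adar they gave −0.33 to 0.02 and −0.02 to 0.18. Adar shares 16.8% of its exon length with Chrnb2 on the other strand and is uncertain in part.

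**Figure D4:**
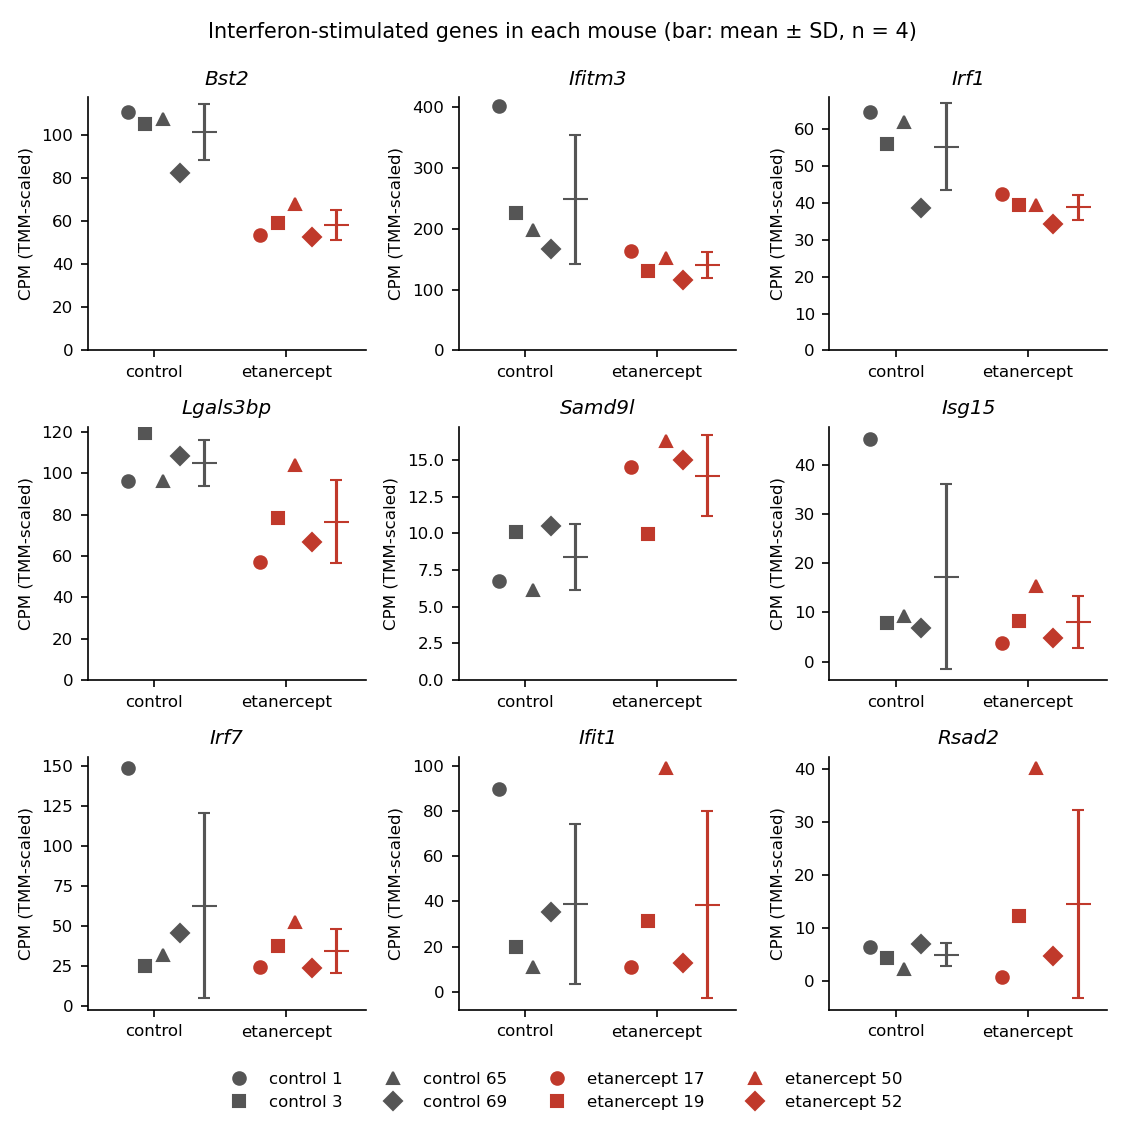
Points give the CPM of 9 interferon-stimulated genes in each mouse, with the mean and SD of each group (n = 4) beside them. Bst2 and Ifitm3 do not overlap between the groups, whereas Isg15 and Irf7 have 1 high control mouse (45.5 CPM and 149 CPM), Rsad2 has 1 high etanercept-treated mouse (40.1 CPM) and Ifit1 has 1 of each.

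Parp9, Parp14 and Dtx3l, which act together on ADP-ribosylation and ubiquitin in the interferon response, had log2 fold changes of −0.37, −0.14 and 0.03, with unadjusted p from 0.257 to 0.890. With library size alone, and likewise with the length or GC trend removed, all 3 were below 0. In contrast to most of the 40, all 3 were lowest in control 69, at 24.3, 29.1 and 17.2 CPM. Parp9 and Dtx3l lie on opposite strands and share part of their exons, 9.40% of the length of Parp9, so their counts are uncertain in part.

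The last 7 genes all had log2 fold changes below 0, with a median of −0.46. Without control 1 the median was −0.16, and without etanercept 52 the split was 5 below and 2 above 0. Lgals3bp, a secreted glycoprotein that binds galectins, lies on chromosome 11 from 118392751 to 118402092. It was at 96.5, 119, 96.2 and 109 CPM in the control mice and at 57.1, 78.6, 104 and 66.9 CPM in the etanercept-treated mice. Etanercept 17, 19 and 52 lay below every control mouse, and etanercept 50 lay among the control mice. Etanercept over control gave a log2 fold change of −0.46 with a standard error of 0.20 (unadjusted p = 0.0452, edgeR adjusted p = 0.743), and −0.34 without etanercept 17. Its unadjusted p stayed up to 0.05 in 7 of 10 settings with every mouse and in 2 of the 8 fits without 1 mouse, and was 0.0599 with the length trend removed and 0.117 with the GC trend removed, so its place among the lower genes depends on the setting. Ifi27, a small membrane protein of mitochondria, was at 81.5, 76.8, 74.1 and 149 CPM in the control mice and at 55.3, 121, 136 and 60.4 CPM in the etanercept-treated mice. Control 69, etanercept 19 and etanercept 50 were its high mice, so its order differed from that of Isg15 or Irf7. In log2 units the fold change was −0.03 with a standard error of 0.35 (edgeR adjusted p = 0.997), and 0.27 without control 69. Ifi44, Rtp4, Xaf1, Ifi35 and Sp100 had log2 fold changes from −0.75 to −0.02 with unadjusted p from 0.111 to 0.953. In fits without 1 mouse the ranges were −0.81 to −0.05 for Ifi44, −1.255 to −0.33 for Rtp4 and −0.93 to −0.19 for Xaf1. They were −0.59 to −0.16 for Ifi35 and −0.14 to 0.26 for Sp100. Ifi44 and Rtp4 were at 1.22 CPM and 2.10 CPM in etanercept 17, where the other mice were at 4.51 CPM or more. Rtp4 and Ifi35 share 13.9% and 16.8% of their exon length with Gm45338 and Gm11626 and are uncertain in part.

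Per length, the 40 transcripts spanned a wide range of abundance. Mean RPKM (CPM per kilobase of exon) over all mice was 286 for Ifitm3, 88.5 for Bst2 and 64.3 for Ifi27, the highest 3. It was 0.0516 for Oas2, 0.278 for Oas3 and 0.537 for Herc6, the lowest 3. Isg15, at 16.8 RPKM, and Ifit1, at 14.6 RPKM, lay between them.

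Type I interferons were not detected at this depth. Of 40 genes for ligands, receptors, kinases, factors and feedback inhibitors, 20 had 0 counts in all 8 mice, and these include Ifnb1 and every interferon-alpha gene of the list. A count of 0 allows a level of up to 0.211 CPM in the shallowest library and 0.109 CPM in the deepest. Ifng, which encodes interferon-gamma, had 54, 5, 4 and 0 counts in the control mice and 0, 7, 7 and 0 counts in the etanercept-treated mice. It was not detected in 3 mice, stayed at 7 counts or fewer in 4, and was highest in control 1. In that mouse 19 of the 39 tested genes were also highest, beside 19.2% of all tested genes, and a link was not tested. The receptor chains were detected evenly, Ifnar1 at 28.9, 29.7, 24.1 and 24.8 CPM in the control mice and 28.1, 21.1, 28.6 and 32.1 CPM in the etanercept-treated mice, with a log2 fold change of 0.03. Ifnar2 was at 22.5, 30.9, 26.9 and 25.6 CPM in the control mice and at 19.4, 20.9, 21.7 and 30.9 CPM in the etanercept-treated mice, with a log2 fold change of −0.19. The groups overlapped for both, and likewise for the kinases Jak1 and Tyk2, with log2 fold changes of 0.02 and 0.01 and unadjusted p of 0.869 and 0.969.

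Of the 19 tested genes of that list, 8 were below and 11 above 0, and the median log2 fold change was 0.02, or −0.05 with library size alone. It also lay below 0 with the length trend removed and without control 1, 65 or 69 or etanercept 17 or 52. These medians were between −0.04495 and −0.002467. Of the 19, 2 were lower with unadjusted p up to 0.05, Socs3 among them, and 0 higher, beside 3.63% and 2.99% of all tested genes. The count of 2 was 3 without etanercept 50 and 4 without control 69, beside 2.62% and 5.98%. Socs3, an inhibitor of cytokine receptors, was at 12.9, 18.9, 16.6 and 10.8 CPM in the control mice and at 4.60, 7.27, 7.23 and 6.10 CPM in the etanercept-treated mice. Its groups did not overlap, and its log2 fold change was −1.23 with a standard error of 0.29 (unadjusted p = 0.00199, edgeR adjusted p = 0.739). The related inhibitor Socs1 was at 8.71, 11.1, 8.52 and 4.17 CPM in the control mice and at 1.22, 4.97, 6.99 and 2.84 CPM in the etanercept-treated mice, with overlap and a log2 fold change of −1.02 (unadjusted p = 0.0944). Among 20 tested genes of nucleic acid sensing upstream of interferon, 10 were below and 10 above 0 with a median of 0.01, or −0.08 with library size alone. Mavs, the adaptor of RIG-I and MDA5 on mitochondria, was the 1 gene among them with unadjusted p up to 0.05, with a log2 fold change of 0.64 (unadjusted p = 0.0161).

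Other genes induced by interferon were read in the same way. Of 45 further type I interferon-stimulated genes outside the 40, 36 had log2 fold changes below 0, the median was −0.26, and 6 were lower and 1 higher with unadjusted p up to 0.05, where all tested genes gave 3.63% and 2.99%. The 5 with the smallest p were Ifi207, Oas1g, Ube2l6, Parp10 and Ly6a, at −1.41, −1.52, −0.80, −0.52 and −0.91, and the higher one, named after its value was seen, was Isg20 at 0.48. Without control 3 the median was −0.10, with 29 below and 16 above 0. The count of 6 was 3 without etanercept 19, 4 without control 1 or control 3 and 10 without control 69, and the count of 1 was 0 in every fit without a mouse except that without control 69. All 16 tested IRG and GBP GTPases, which are induced mainly by interferon-gamma and guard against intracellular microbes, were below 0, with a median of −0.76, and 4 were lower with unadjusted p up to 0.05. These were Ifi47 at −1.28, Gbp4 at −1.38, Irgm1 at −0.91 and Igtp at −1.33. The count of 4 was 1 without control 3, 2 without control 1, etanercept 19 or etanercept 50, and 6 without control 69. Without control 1, where 17 of these genes passed the filter, the median was −0.36 with 16 below and 1 above 0. Of 15 genes of the immunoproteasome and of class I peptide loading, 11 were below 0 with a median of −0.53, and 8 were lower with unadjusted p up to 0.05. The 5 with the smallest p were Psmb10, Psmb8, Psmb9, Tap2 and Psme1, at −0.91, −1.17, −1.05, −0.80 and −0.77. The count of 8 was 4 without etanercept 19 or etanercept 52, 5 without control 1 or etanercept 50 and 9 without control 69. Over all tested genes the share of lower genes lay between 2.49% and 5.98% in the fits without a mouse, highest without control 69. None of these lists held a gene at an edgeR adjusted p of at most 0.05 or a gene called by DESeq2.

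The levels of cell type markers beside these genes differed between mice too. The 12 macrophage markers all had log2 fold changes below 0, with a median of −0.83, 5 of them with unadjusted p up to 0.05 and 3 lower without overlap of the groups (3.63% and 2.53% of all tested genes), and summed to 515, 1621, 823 and 575 CPM in the control mice and 540, 560, 452 and 600 CPM in the etanercept-treated mice. Control 3 held most of them, with Lyz2 as the most abundant, and without control 3 the split was 8 below and 4 above 0 with a median of −0.37. The count of 5 was 1 without control 3 and 2 without etanercept 50. The 10 T cell markers, 4 of them with unadjusted p up to 0.05, were all below 0 with a median of −0.98, and summed to 126, 190.0, 118 and 76.2 CPM in the control mice and 76.4, 55.3, 85.9 and 61.0 CPM in the etanercept-treated mice. For B cells 6 of 6 were below 0, for plasma cells 3 of 4, for natural killer cells 4 of 4, for dendritic cells 4 of 5 and for plasmacytoid dendritic cells, the main makers of interferon-alpha, 3 of 4. The medians of these lists were −0.74, −1.10, −1.16, −0.20 and −0.93. All 5 general leukocyte markers were below 0 with a median of −0.29. Without control 3 the medians turned to 0.03 for B cells, 0.16 for dendritic cells and 0.195 for leukocytes. Without control 1 the median was −0.42 for natural killer cells and −0.17 for plasmacytoid dendritic cells, with 2 below and 2 above 0 in the latter. Neutrophil markers were near 0 in all mice, at 1.87 CPM or less in sum, with S100a8 at 0 counts throughout. In the tissue itself, the 6 smooth muscle markers were all above 0 with a median of 0.66 (3 with unadjusted p up to 0.05, 2 higher without overlap of the groups, beside 2.99% and 2.41% of all tested genes), the 6 tested adipocyte markers all below 0 with a median of −3.39 (5 with unadjusted p up to 0.05, 2 called by DESeq2), the 4 basal epithelial markers all below 0 with a median of −0.62, and the 6 endothelial markers all below 0 with a median of −0.49. Of 10 luminal markers 7 were below 0, of 6 fibroblast markers 3, of 4 tested skeletal muscle markers 3, and of 4 tested seminal vesicle markers 0. Their medians were −0.12, 0.29, −2.88 and 4.18, and without control 3 the skeletal muscle median was 1.53 and the endothelial median 0.02. The fibroblast median was 0.67 without control 3, with all 6 above 0, and 0.075 without control 1 or without etanercept 52. For luminal markers it was −0.26 without etanercept 52 and −0.07 without control 65. Without etanercept 17 the seminal vesicle median was −2.23, and without control 69 it was 11.09. In the latter fit 4 of 4 were higher with unadjusted p up to 0.05, beside 5.45% of all tested genes. The part of these markers in the values of the interferon-stimulated genes was not tested.

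The promoters of the 40 genes were searched, on both strands, for the letters that the interferon complex binds. RefSeq windows of GRCm38.p6 were used, from 250 bases before to 50 bases after each start. Of the 40, 30 had an entry. Those named only are Oas2, Rtp4, Dhx58, Mx2, Ifi27, Parp14, Zbp1, Usp18, Mx1 and Parp9. The core of the interferon-stimulated response element, GAAA, any 2 bases and GAAA, was found in 13 of the 30 (43.3%) and in 3.99% of the 27025 genes of the table. A match of letters is a description, and is not evidence that a factor binds. The 13 genes were Bst2, Ddx58, Eif2ak2, Ifih1, Ifit1, Ifit3, Ifit3b, Ifitm3, Isg15, Oas1a, Oas3, Rsad2 and Stat2, and in Ddx58, Eif2ak2, Ifih1 and Ifitm3 the match lay after the start.

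Genes with unlike values shared the motif. Among genes with this motif upstream, Ifit1 and Ifit3 were high in both control 1 and etanercept 50. Isg15 was far highest in control 1, with etanercept 50 next, and Rsad2 was highest in etanercept 50. Bst2 had even groups. The stretches let these promoters be compared, each read 5′ to 3′ on the strand of the gene, with the matches in capitals (GAAA, 2 bases, GAAA, or TTTC, 2 bases, TTTC where the match lies on the other strand) and 15 bases on each side. In Isg15 the 3 overlapping matches begin 78 bases before the start (chr4:156200860-156200911, minus strand), and in Bst2 the 2 overlapping matches begin 130 bases before it (chr8:71537572-71537617, minus strand). Oas3 has 1 match 75 bases before the start (chr5:120777710-120777749, minus strand), Stat2 has 1 at 222 bases (chr10:128270261-128270300, plus strand) and Rsad2 has 1 at 120 bases (chr12:26456548-26456587, minus strand). Ifit1 has 2, the first at 104 bases (chr19:34640770-34640828, plus strand). Ifit3 (chr19:34583358-34583431) and Ifit3b (chr19:34607754-34607827), both on the plus strand, have 2 each, the first at 156 and 188 bases, and the 74 bases shown differ at 0 positions.
Isg15: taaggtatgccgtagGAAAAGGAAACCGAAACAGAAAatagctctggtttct
Bst2: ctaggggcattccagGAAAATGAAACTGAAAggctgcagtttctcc
Oas3: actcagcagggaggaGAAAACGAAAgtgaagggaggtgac
Stat2: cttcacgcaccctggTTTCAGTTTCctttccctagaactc
Rsad2: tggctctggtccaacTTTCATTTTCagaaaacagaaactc
Ifit1: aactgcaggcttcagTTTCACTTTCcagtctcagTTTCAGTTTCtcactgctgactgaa
Ifit3: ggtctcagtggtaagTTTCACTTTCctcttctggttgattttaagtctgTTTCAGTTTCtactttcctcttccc
Ifit3b: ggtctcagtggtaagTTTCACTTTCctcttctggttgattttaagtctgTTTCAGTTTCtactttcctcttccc
Bst2, whose groups did not overlap, and Isg15, whose difference rested on control 1, both carry overlapping matches, as does Oas1a, whose matches begin 20 and 14 bases before the start.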

How the data were processed

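RNA from frozen prostate tissue of 8 NOD mice, 4 control and 4 etanercept-treated, was poly(A)-selected, and read pairs (150 nt) were sequenced. The submitters' processing notes name fastp, STAR 2.6.1d, featureCounts 1.5.0-p3 and mm10, and the authors deposited whole-number counts per gene and mouse, without normalization. The annotation release and the strand setting of the counting are not given in the sources used here, so counts of genes overlapped from the opposite strand are uncertain. Symbols were matched on the Ensembl identifier with GENCODE M21; 37 of 54532 identifiers were not in it.

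Groups were compared with edgeR 4.0.16 (R 4.3.3), TMM factors, filterByExpr (minimum count 10) and its quasi-likelihood test with Benjamini-Hochberg adjustment over 15472 genes at 0.05. CPM are TMM-scaled. The script was tested on simulated data. The samples are separate mice, and their labels name no batch. Other settings were upper-quartile factors, RLE factors or library size alone, DESeq2 1.42.0, a robust fit, no filter or a filter of 10 counts in every mouse, removal of length or GC trends (lowess, span 0.3), the animal number (below 20 or not) as a term, and leaving out each mouse.

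The 40 genes and all lists were chosen with earlier results of these data known. Values in every mouse are given for genes with unadjusted p up to 0.05, genes whose groups do not overlap, the 3 with the highest and the 3 with the lowest RPKM, and Irf1, Irf7, Irf9, Stat2, Isg15, Ifit1, Ifit3, Mx1, Oas2, Rsad2, Bst2, Usp18, Ifih1, Ddx58 and Zbp1. Of the other lists, at most 5 genes at that p and Ifnb1, Ifng, Ifnar1, Ifnar2, Jak1, Tyk2 and Socs1 are named. Floors of 3 counts cover counting error only.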

Additional observations from a re-analysis of the deposited data

Results flagged for a closer look

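In 13 of 112 groups of 4 mice, 1 mouse lay so far from the other 3 that its gap to the nearest exceeded the critical value of Dixon's test. For normally distributed values chance alone does this in about 1 in 20 groups, and among groups of all tested genes in these mice 7.18% did so. Of the 13 groups, 8 were among the 78 groups of the 39 tested interferon-stimulated genes and 5 among the 34 groups of marker sums.

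Control 1 stood above the other control mice for Irf7 at 148.6 CPM (others up to 45.55), for Isg15 at 45.49 CPM (others up to 9.23), for Oasl2 at 83.24 CPM (others up to 34.67) and for Xaf1 at 31.6 CPM (others up to 11.97). Etanercept 50 stood above the other etanercept-treated mice for Ifit3 at 48.61 CPM (others up to 14.76), for Ifit3b at 18.0 CPM (others up to 6.17) and for Oasl2 at 45.62 CPM (others up to 27.27). Control 69 stood above the other control mice for Ifi27 at 149.1 CPM (others up to 81.5).

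Among marker sums, control 3 was high for all leukocytes at 681.8 CPM and for B cells at 379.0 CPM. Control 69 was high for luminal epithelium at 23347 CPM and for seminal vesicle at 4001 CPM, and etanercept 17 was high for seminal vesicle at 97204 CPM.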

How the results depend on the processing

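Leaving out mice turned more signs than any scaling, filter or fit did, while only DESeq2 changed the number of genes called. Of 199 log2 fold changes of the 20 named and tested genes under alternatives that keep all mice, 9 turned sign, and of 160 with a mouse left out, 20 did; the causes were not tested. The median over the 40 kept its sign in every setting run.

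DESeq2 called 21 genes in place of 0 and 1 of the 40 in place of 0, which was Bst2 at −0.82. It also gave 2 genes of the 40 that were higher with unadjusted p up to 0.05, as did a minimum of 10 counts in every mouse, 2 in place of 1. With library size alone, 1 gene had groups that did not overlap, in place of 2, since those of Ifitm3 overlapped. Ifit3 turned from 0.01 to −0.0151 with DESeq2, −0.01755 with RLE factors, −0.03097 with upper-quartile factors, −0.11 with library size alone, −0.0111 with at least 10 counts in every mouse and −0.07422 without the GC trend. Without the length trend Ifit1 turned to 0.0133 and Ifi27 to 0.08809, and with the animal number as a term Herc6 turned to 0.14.

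With each mouse left out in turn, edgeR called 0 genes in every fit. The count of the 40 lower with unadjusted p up to 0.05 lay between 2 and 5 (2.49% to 5.98% of all tested genes), the count higher between 0 and 1 (1.64% to 5.45%), the count whose groups did not overlap between 2 and 5 (6.70% to 12.8%), and the median between −0.51 and −0.04. The log2 fold change lay between −1.14 and 0.005521 for Irf7, −0.18 and 0.0242 for Irf9, −0.52 and 0.009676 for Stat2, −1.62 and 0.01468 for Isg15, −1.08 and 0.80 for Ifit1, −0.74 and 0.51 for Ifit3, −0.68 and 0.03564 for Usp18, −0.29 and 0.11 for Ddx58, −0.50 and 0.69 for Herc6, and −0.27 and 0.27 for Ifi27. The mice share no number between the groups, so no paired analysis was possible because no pairing is given. Oas2, Oas3, Mx2 and the interferon genes had 0 counts in 1 or more mice, and the part of depth in this was not tested. Oas3 and Mx2 were at 0 counts only in etanercept 17. That library held 17739635 counts and 97204 CPM of seminal vesicle markers, and the part of either in these 0 counts was not tested.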
